A study of Mus musculus with 312 samples.

Results

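Expression of Slpi differed widely among adult mammary basal cells, and the cells with the most and the least of it were compared over all other genes. The cells are those whose title carries the mark (2), which the labels do not explain. Of 312 cells in the series, 112 carried the mark, and 81 of these passed a minimum of 50000 assigned reads and of 1000 genes with a read. Assigned reads are the reads in genes with a symbol, with mitochondrial genes and the ribosomal protein genes (Rpl and Rps) left out. The 81 cells were ranked by their Slpi level and divided into 27 Slpi-high, 27 Slpi-middle and 27 Slpi-low cells. Levels are given as CPM, the reads of a gene per 1e6 assigned reads of its cell.

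All of these cells came from the mammary glands of adult female FVB/NJ mice and were labelled as basal epithelium, with no treatment named. Per the study's methods, cells were sorted as CD29-high CD24-positive after depletion of blood and endothelial cells, from pooled mice, and captured one by one on the Fluidigm C1. The labels name no animal for any cell. The 58 retained of 125 adult cells without the mark were used beside them as cells that the ranking had not used, and the 75 pregnancy cells were not analysed here.

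Slpi encodes secretory leukocyte protease inhibitor, a small secreted protein with WAP domains made by many mucosal and glandular epithelia. It blocks neutrophil elastase and cathepsin G, protects tissue from these enzymes during inflammation, and dampens signalling through NF-kB, a family of transcription factors that switch on inflammatory genes. Basal cells are the outer, contractile layer of mammary ducts and are known by the keratins Krt5 and Krt14, the transcription factor Trp63 and smooth muscle proteins such as Acta2.

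Because the cells were chosen by their Slpi level and no animals are named, each group counts as 1 sample. Every difference below is therefore a description of these cells, without a test, an SE or a replicate check.

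Slpi itself set the groups. In Slpi-high cells its level was 9409 CPM in the lowest cell, 16301 CPM at the median and 54423 CPM in the highest. The values were 2468, 5531 and 8894 CPM in Slpi-middle cells, and 0, 234 and 2390 CPM in Slpi-low cells. The limits between the groups split neighbouring values, with 9409 CPM just inside the Slpi-high group and 8894 CPM just outside it, and with 2390 CPM just inside the Slpi-low group and 2468 CPM just outside it. The Slpi-low group held 5 cells without a Slpi read, and 11 of its 27 cells lay under 100 CPM. Slpi alone took 2.05% of the assigned reads of Slpi-high cells and up to 5.44% in a single cell, against 0.0619% over the Slpi-low cells. The counts behind these shares were 99021 Slpi reads (exact Poisson 95% interval 98405 to 99640) in the Slpi-high cells and 3144 reads (3035 to 3256) in the Slpi-low cells, and the intervals cover counting error only.

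**Figure D1:**
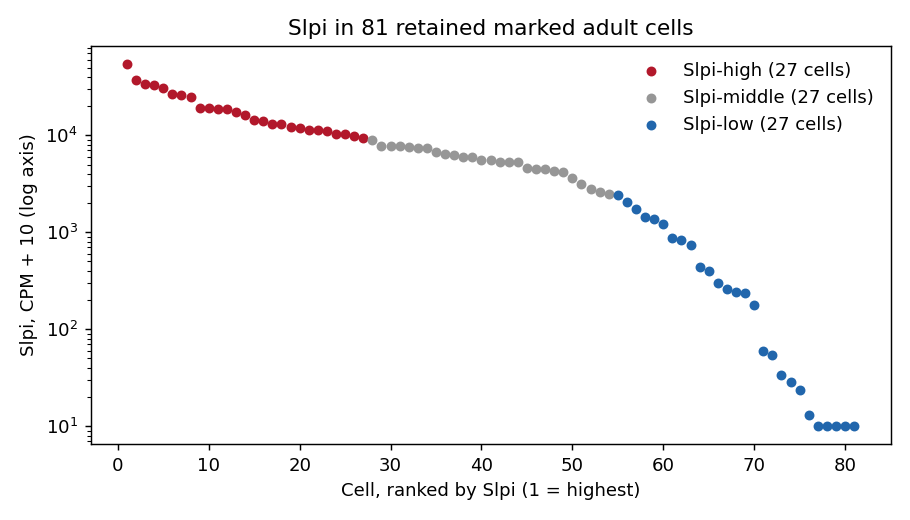
Slpi level of each of the 81 retained marked adult cells on a log axis (CPM plus 10), ordered by rank and coloured by group. Levels run from 54423 CPM down to the 5 cells at 0, and the lower end spreads most.

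The gene lies on chromosome 2 of the GRCm38 build, the build that the authors used. The 250 bases before its start are given here with those of Fxyd3, one of the 3 genes whose levels followed Slpi most closely by rank over the 81 cells. Windows of the other such genes, Mt1 and Ltbp2, are not given, since they reach into the gene as RefSeq's gene table places it. The Slpi and Fxyd3 windows are RefSeq sequence of GRCm38.p6, written 5′ to 3′ on the strand of the gene, and each window ends at the start that RefSeq gives, which need not be the start used in these cells. Capitals mark letters that matched any of 4 motifs, searched on both strands.
Slpi (chr2:164356508-164356757, minus strand): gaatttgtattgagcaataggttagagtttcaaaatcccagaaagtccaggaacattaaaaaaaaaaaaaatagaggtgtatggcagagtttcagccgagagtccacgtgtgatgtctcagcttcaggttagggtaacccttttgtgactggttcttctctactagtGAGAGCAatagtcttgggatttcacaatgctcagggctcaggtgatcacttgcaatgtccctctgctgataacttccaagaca
Fxyd3 (chr7:31076698-31076947, minus strand): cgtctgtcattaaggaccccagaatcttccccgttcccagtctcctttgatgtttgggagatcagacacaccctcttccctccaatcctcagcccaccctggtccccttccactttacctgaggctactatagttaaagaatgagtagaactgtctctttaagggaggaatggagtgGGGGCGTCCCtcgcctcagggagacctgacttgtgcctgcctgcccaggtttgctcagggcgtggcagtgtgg

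One motif was a loose form of the metal response element core, TGCNCNC, where N is any base. In the usual core the N after TGC is A or G. The others were an NF-kB motif (GGGA and CC with any 4 bases between) and an AP-1 motif (TGANTCA). The last was a glucocorticoid response element (GNACA and TGTNC with any 3 bases between). The Slpi window held 1 match, to the loose metal response form, which 44.4% of 32851 promoter windows of this length also held. The stretch reads TGCTCTC on the other strand, with T after TGC, so it does not match the usual core. The Fxyd3 window held 1 match, to the NF-kB motif, which 17.6% of all windows held. Neither window held the AP-1 motif or the glucocorticoid element, which 6.75% and 0.387% of all windows held. The matches are descriptions of letters, not of sites in use.

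Depth and mitochondrial share were alike in the 3 groups at the median, and title number was not. The median number of assigned reads was 166228 in Slpi-high cells (range 59012 to 397408) and 187773 in Slpi-low cells (range 67531 to 325491). Mitochondrial reads made up a median of 8.82% of all reads in Slpi-high cells (up to 30.2%) and 9.65% in Slpi-low cells (up to 52.7%). The upper part was not alike, with an upper quartile of 12.7% in Slpi-high, 11.8% in Slpi-middle and 20.4% in Slpi-low cells. After each cell was thinned to 50000 assigned reads, the median number of genes detected was 2393 in Slpi-high cells, 2580 in Slpi-middle cells and 2133 in Slpi-low cells, and without thinning it was 2851, 3441 and 2796. Over the 81 cells the Spearman correlation with Slpi was -0.03 for assigned reads, -0.17 for mitochondrial share and 0.08 for thinned genes.

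The number in the cell title had a median of 61 in Slpi-high cells and 80 in Slpi-low cells. All 9 retained cells numbered 95 or above were Slpi-low, so these cells and low Slpi cannot be told apart above that number. The other 18 Slpi-low cells were numbered up to 94, and over the 72 cells up to 94 the Spearman correlation of Slpi with number was 0.13, against -0.17 over all 81. Values without the 9 late-numbered cells are given beside part of the results. The labels do not say what the number stands for.

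Core basal genes were found in most cells, and the cells with few of them were all Slpi-low. Of 11 core basal genes (Krt5, Krt14, Krt17, Trp63, Acta2, Myh11, Mylk, Myl9, Cnn1, Tagln and Cxcl14), at least 6 stood at 100 CPM or more in 27 of 27 Slpi-high, 27 of 27 Slpi-middle and 22 of 27 Slpi-low cells. The median cell had 10, 10 and 9 of these genes. The 5 exceptions were cells 7, 19, 95, 100 and 104, and 3 of them were numbered 95 or above.

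The highest summed levels of immune, pericyte, adipocyte, fibroblast and endothelial genes were found in Slpi-low cells, and the highest of Schwann cell genes in a Slpi-high cell. The summed level of 8 immune genes ranged from 0 to 297 CPM in Slpi-high cells and from 0 to 13733 CPM in Slpi-low cells, where the highest value belonged to cell 19. The sum of 8 pericyte genes reached 3.24 CPM in Slpi-high cells and 7296 CPM in Slpi-low cells, and cells 102 and 104 each had at least 3 of these genes at 100 CPM or more. The sum of 8 adipocyte genes reached 49.3 CPM in Slpi-high cells and 7085 CPM in Slpi-low cell 100, and the sum of 8 fibroblast genes reached 253 and 3262 CPM. Of the listed genes, 4 immune, 7 pericyte, 5 adipocyte and 3 fibroblast genes had no read in any Slpi-high cell, and 1, 2, 4 and 3 had none in any Slpi-low cell. The share of all genes without a read in each group is not given here. Counts of unread list genes, here and below, are therefore no result about the lists. Endothelial genes, whose cells the sort was meant to deplete, reached a sum of 39.9 CPM in Slpi-high and 561 CPM in Slpi-low cells. The sum of 8 Schwann cell genes reached 4298 CPM in Slpi-high cell 69, which was all Sox10, and 2042 CPM in Slpi-low cell 82, and 5 of the 8 genes had no read in any Slpi-high cell and 3 in any Slpi-low cell. The part of these cells in the differences below was not tested beyond the alternatives that leave cells out.

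Neutrophil genes, whose proteases are the classical targets of Slpi, were close to absent. Their summed level reached 5.45 CPM in Slpi-high cells and 0 CPM in Slpi-low cells, and 6 of the 8 neutrophil genes had no read in any Slpi-high cell. Proliferation genes were low in both groups, with a median sum of 37.2 CPM over 14 genes in Slpi-high cells and 17.9 CPM in Slpi-low cells, and cell 105 alone among Slpi-low cells had at least 3 of them at 100 CPM or more.

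**Figure D2:**
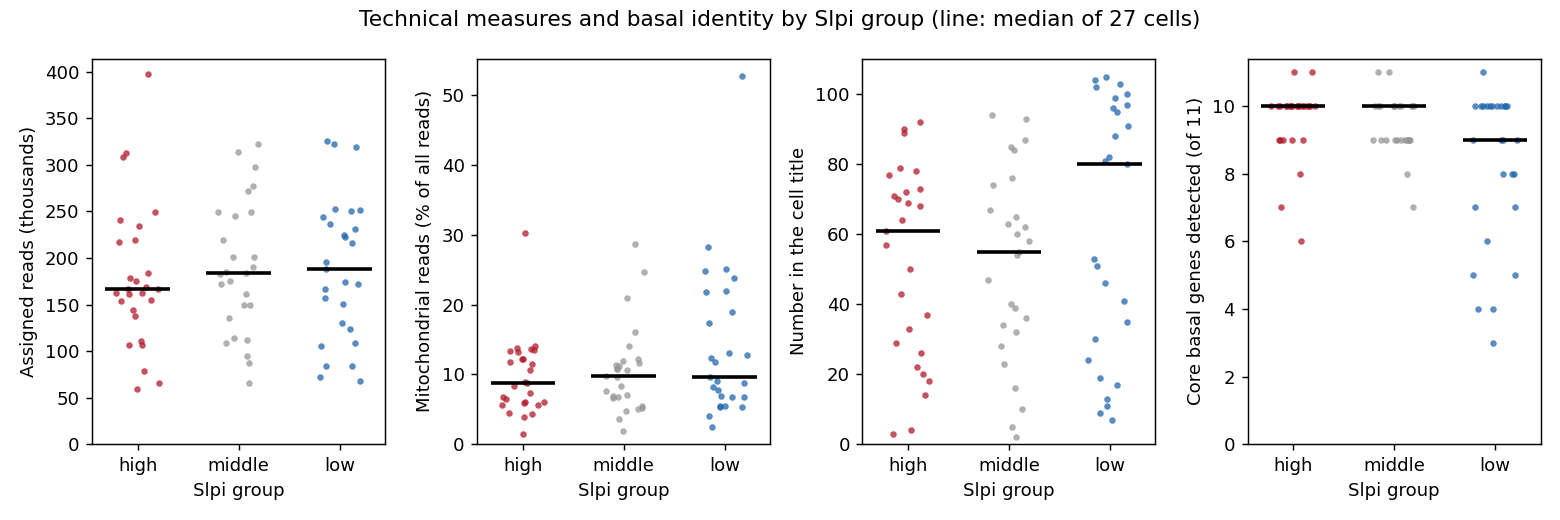
Assigned reads, mitochondrial share of all reads, title number and the number of 11 core basal genes at 100 CPM or more, for each cell by Slpi group, with a line at the median of 27 cells. Read depth and mitochondrial share overlap between groups, and the upper quartile of mitochondrial share is highest in Slpi-low cells. All cells numbered 95 or above are Slpi-low, and only Slpi-low cells have fewer than 6 core basal genes.

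The comparison over all genes covered 4647 genes that averaged 20 CPM or more over the 81 cells and had a read in at least 20% of them. Its measure was the log2 ratio of the mean CPM of Slpi-high over Slpi-low cells, with 10 CPM added to each mean, which understates the change of low genes. A ratio of 1 or more was found for 870 genes (18.7% of genes tested) and a ratio of -1 or less for 822 genes (17.7%). The median ratio was 0.02 and the median size of the ratio was 0.72. The counts were far smaller when each cell was put on the log2(CPM + 10) scale before averaging, at 292 genes higher (6.28%) and 77 lower (1.66%), and the median gene then stood 0.11 above 0. Both measures were past the fold for 179 genes higher (3.85%) and 59 lower (1.27%). Of all genes tested, 18.9% had mean levels that stepped down from Slpi-high over Slpi-middle to Slpi-low cells, and 17.8% had means that stepped up.

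**Figure D3:**
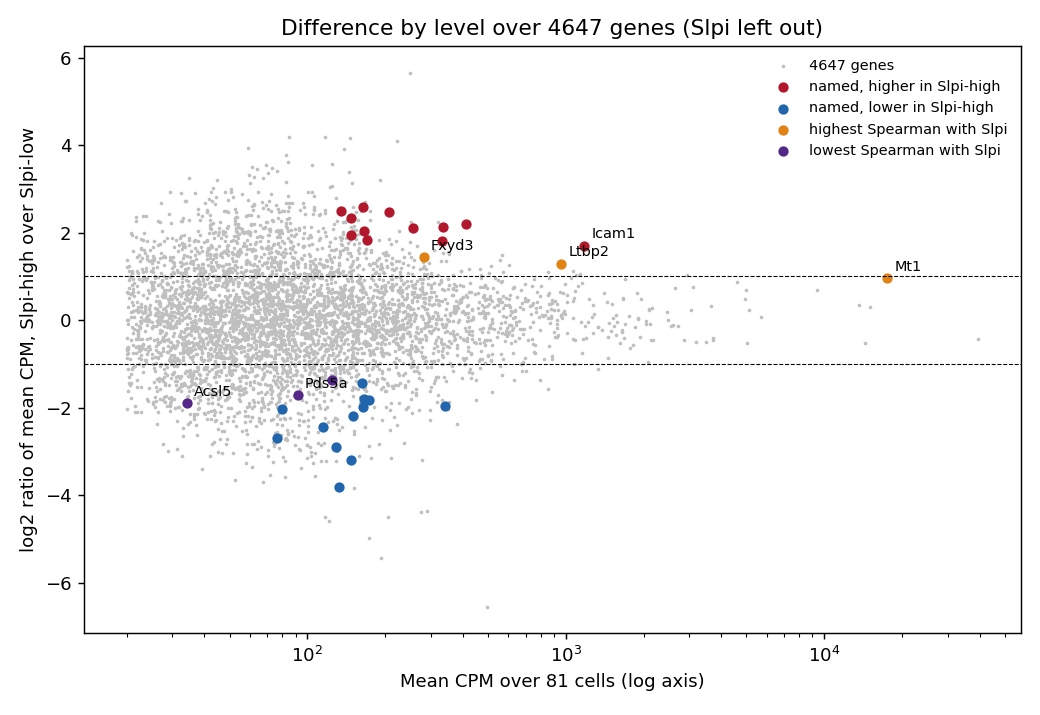
The log2 ratio of mean CPM (pseudocount 10), Slpi-high over Slpi-low, against mean CPM on a log axis for 4647 genes, with named genes coloured and dashed lines at 1 and -1. Ratios spread widest at low levels, and Mt1, Ltbp2 and Icam1 lie at the upper edge among well-expressed genes.

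Across single cells, few genes followed Slpi. The Spearman correlation with Slpi was 0.3 or more for 48 of 4647 genes (1.03%) and -0.3 or less for 3 genes (0.0646%). These correlations are over 81 cells that share a capture platform and differ in depth, and sparse genes carry many ties at 0.

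Mt1 had the highest correlation of the genes tested, 0.54. It encodes a metallothionein, a small cysteine-rich protein that binds zinc and copper and is induced by metals, glucocorticoids and oxidative stress. Its level was 8019 CPM in the lowest Slpi-high cell, 23594 CPM at the median and 56751 CPM in the highest. In Slpi-middle cells the values were 45.8, 15516 and 34205 CPM, and in Slpi-low cells 278, 10683 and 36001 CPM. The groups overlapped, yet 26 of 27 Slpi-high cells lay above the Slpi-low median, and 3 of 27 Slpi-low cells lay above the Slpi-high median. The ratio of mean Mt1 levels was 0.96 (1.94-fold), and 0.81 without the late-numbered cells. Its correlation with Slpi was 0.52 without those cells.

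Mt2, the neighbouring metallothionein gene, moved with Mt1. Its median was 3619 CPM in Slpi-high cells (3.20 to 14620 CPM), 2704 CPM in Slpi-middle cells and 1782 CPM in Slpi-low cells (27.7 to 5603 CPM), its log2 ratio of means was 1.03, and its Spearman correlation with Slpi was 0.42. The ratio was 0.74 without the late-numbered cells, under the fold of 1.

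Ltbp2, a latent TGF-beta binding protein of elastic fibres, came second with a correlation of 0.43. It was read in all 27 Slpi-high cells, at 29.1 CPM in the lowest, 901 CPM at the median and 10628 CPM in the highest. Slpi-low cells had 0, 228 and 2900 CPM, and 22 of 27 had a read. Groups overlapped, with 21 of 27 Slpi-high cells above the Slpi-low median. Its log2 ratio was 1.30 (means of 1480, 796 and 597 CPM in high, middle and low cells) and its mean log2 difference was 2.35, since the Slpi-low group held the cells without it. Without its highest cell the ratio was 0.91, and with only cells above the median mitochondrial share it was 0.59. Without the late-numbered cells the ratio was 1.03, the mean log2 difference 1.59 and the correlation 0.34.

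Fxyd3, which encodes a small membrane protein that regulates the sodium-potassium pump, had a correlation of 0.42. Its lowest, median and highest levels were 29.1, 325 and 1762 CPM in Slpi-high cells and 0, 111 and 600 CPM in Slpi-low cells. It was read in 27 of 27 Slpi-high cells and in 18 of 27 Slpi-low cells. The log2 ratio was 1.45, and mean levels stepped down from 427 CPM in high to 267 CPM in middle and 150 CPM in low cells. Without the late-numbered cells the ratio was 1.19 and the correlation 0.31.

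**Figure D4:**
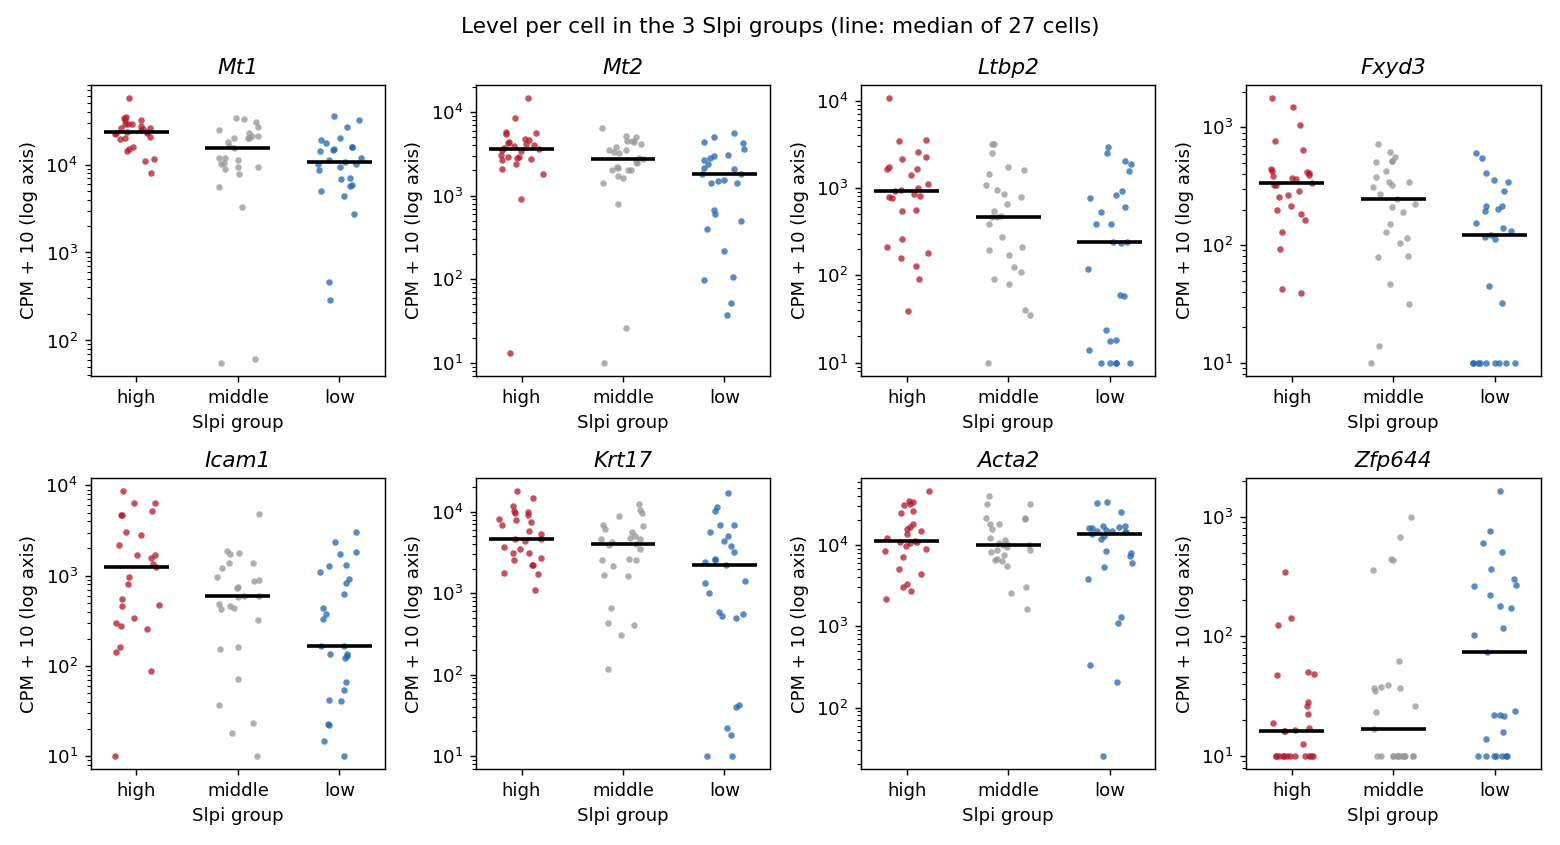
Level per cell (CPM plus 10, log axis) of Mt1, Mt2, Ltbp2, Fxyd3, Icam1, Krt17, Acta2 and Zfp644 in Slpi-high, Slpi-middle and Slpi-low cells, with a line at the median of 27 cells. Medians of the first 6 genes step down with Slpi while the groups overlap, Acta2 shows no such order, and Zfp644 has its highest median in Slpi-low cells.

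The 3 genes with the lowest correlations were sparse. Acsl5, an acyl-CoA synthetase of fatty acid metabolism, had a correlation of -0.35 and no read in any Slpi-high cell, where a count of 0 allows up to 0.622 CPM over the pooled reads, for counting error only. Acsl5 had 109 reads in 9 of 27 Slpi-low cells, which was 21.5 CPM pooled, and 44.8% of its summed level there came from 1 cell. Slpi-middle cells had the most, with 506 reads in 10 of 27 cells. The mean was 75.1 CPM there and 27.3 CPM in Slpi-low cells, so its order did not follow Slpi. Pds5a, a cohesin regulator, had a correlation of -0.34 and reads in 4 Slpi-high and 16 Slpi-low cells. Its ratio of -1.71 changed sign, to 1.36, with only cells at or above the median depth, and to 0.25 with only cells above the median mitochondrial share. Pdcd4, a repressor of translation, had a correlation of -0.31 and medians of 6.17 CPM in Slpi-high and 92.2 CPM in Slpi-low cells.

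The 12 genes named as higher led by the smaller of their log2 ratio and mean log2 difference, and not necessarily by either alone. They were Eif3g (a translation initiation subunit), Ginm1, Huwe1 (a ubiquitin ligase), Trp53 (the p53 tumour suppressor), Ssr4 (a translocon-associated protein), Irak1 (a kinase of interleukin-1 and Toll-like receptor signalling), Hcfc1r1, Icam1, Tapbp (tapasin, which loads MHC class I), Iffo2, Myo18a and Rela (the p65 subunit of NF-kB). All 12 were at 0 reads in at least 1 Slpi-high cell, and their correlations with Slpi lay between 0.23 and 0.37. All 12 remained past the fold without the late-numbered cells, with Eif3g at 3.36 (2.34 with all cells). For 7 of the 12 the Slpi-middle mean lay between the other 2 means.

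Icam1 was the most broadly expressed of them. It encodes an adhesion molecule for leukocytes and is a classical NF-kB target. Its level was 0 CPM in the lowest Slpi-high cell, 1237 CPM at the median and 8572 CPM in the highest, against 0, 157 and 3002 CPM in Slpi-low cells. Both groups had it in 26 of 27 cells, and 23 of 27 Slpi-high cells lay above the Slpi-low median while 6 of 27 Slpi-low cells lay above the Slpi-high median. The log2 ratio was 1.71 (3.26-fold) with means of 2077, 835 and 629 CPM in high, middle and low cells, and 1.81 without the late-numbered cells. It was 0.93 between all cells above and all cells below the median of Slpi and 0.90 with only cells above the median mitochondrial share.

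Irak1 and Rela, which act upstream of NF-kB targets, were read in fewer cells. The median of Irak1 was 160 CPM in Slpi-high cells (0 to 1538 CPM) and 4.45 CPM in Slpi-low cells (0 to 500 CPM), with a log2 ratio of 2.46, or 3.07 without the late-numbered cells. The median of Rela was 12.9 CPM in Slpi-high cells and 0 CPM in Slpi-low cells, with reads in 18 and 9 of 27 cells, and its log2 ratio was 1.82, or 1.28 without the late-numbered cells. Rela was highest on average in Slpi-middle cells, at 512 CPM against 385 CPM in Slpi-high cells, so its order did not follow Slpi. The same held for Trp53, with means of 507, 627 and 102 CPM in high, middle and low cells and a log2 ratio of 2.20. It also held for Huwe1, with means of 452, 461 and 95.0 CPM and a ratio of 2.14. Tapbp had means of 341, 356 and 71.1 CPM. Cell 28 held 54.5% of the Slpi-middle level of Rela and 54.1% of that of Trp53. The median of Rela was also higher in Slpi-middle than in Slpi-high cells, at 34.1 against 12.9 CPM. For Trp53 these medians were 67.0 and 45.6 CPM. Hcfc1r1 had its lowest mean in Slpi-middle cells, at 319, 39.0 and 48.4 CPM. The ratio of Trp53 was 0.14 with only cells numbered 1 to 56, and that of Huwe1 was 0.42 between all cells above and all cells below the median of Slpi.

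The 12 genes named as lower were Zfp644, Cops2 (a COP9 signalosome subunit), Cpne1 (a copine, which binds membranes with calcium), Zfc3h1 (a factor of nuclear RNA decay), Snora81 (a small nucleolar RNA), Kdm2a (a histone demethylase), Ncoa1 (a steroid receptor coactivator), Lrrc8a (a volume-regulated anion channel subunit), Rnd3, Txnl1, Zbtb11 and Pip4p2. Every one of them lacked reads in at least 1 cell of each group, and their correlations lay between -0.29 and -0.16. For 10 of the 12 the Slpi-middle mean lay between the other 2 means. Zfp644 had a median of 6.17 CPM in Slpi-high cells (0 to 337 CPM) and 64.6 CPM in Slpi-low cells (0 to 1616 CPM), with a log2 ratio of -2.45. Cpne1 was read in 7 Slpi-high and 13 Slpi-low cells, and its ratio of -3.81 rested on a few cells, with 47.6% of its summed Slpi-low level in cell 51. Snora81 had means of 16.6, 50.1 and 163 CPM in high, middle and low cells and a ratio of -2.70, and reads of the gene that hosts it could be counted with it. Without the late-numbered cells 11 of the 12 stayed past the fold, Rnd3 was at -0.82, and Lrrc8a was at -1.71 (-2.90 with all cells). With only cells numbered 1 to 56 Snora81 was at -0.76 and Txnl1 at -0.54 (-2.18 with all cells), and Cops2 was at -0.14 (-1.81) with only cells at or below the median mitochondrial share.

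Genes of the NF-kB response were then taken as a list of 20 targets and feedback genes. Of the 12 past the filter, 5 were higher by the fold and 0 lower, beside 18.7% higher and 17.7% lower over all genes, and the median ratio was 0.56 against 0.02 over all genes. On the mean log2 scale the list's median difference was 0.25 against 0.11 over all genes. The highest summed level of the list was in a Slpi-low cell, cell 19, at 34388 CPM, and the highest in Slpi-high cells was 29125 CPM in cell 69. The 5 were Icam1, Ccl2, Nfkb1, Nfkb2 and Bcl3. Birc3, an inhibitor of apoptosis, lay just under the fold.

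Members of the list did not all point the same way. Nfkb1, the p50 precursor, had medians of 63.5 CPM in Slpi-high and 0 CPM in Slpi-low cells and a ratio of 1.53. Bcl3, an IkB family coactivator, had 45.1 and 9.23 CPM and a ratio of 1.30, which was 0.96 without the late-numbered cells. Nfkb2, the p52 precursor, was read in 15 Slpi-high and 5 Slpi-low cells with a ratio of 2.54, but 72.2% of its Slpi-high level came from cell 37. Ccl2, a monocyte chemokine, had a ratio of 5.66 from 9 Slpi-high cells, and 51.9% of its level came from cell 69. Nfkbia and Nfkbiz, feedback inhibitors that NF-kB induces at once, had ratios of -0.45 and -0.57. The list's median was -0.08 among cells numbered 1 to 56 and 0.76 among cells numbered 57 to 112. In unmarked cells, 11 members passed both filters, with 5 higher, 3 lower and a median of 0.99. Over all 3941 genes past both filters 24.3% were higher and 29.3% lower there. List counts that follow are to be read beside these shares for unmarked cells. For marked cells the shares are the 18.7% higher and 17.7% lower given above.

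The list of interferon and MHC class I genes had 4 of 9 filtered members higher, 0 lower and a median ratio of 0.69, beside 18.7% of all genes higher, and its median on the mean log2 scale was 1.06. In unmarked cells, 8 members passed both filters, with 2 higher, 4 lower and a median ratio of -0.96. Ifitm3, an antiviral membrane protein, was read in every cell, at a median of 6033 CPM in Slpi-high cells (1978 to 15558 CPM), 3920 CPM in Slpi-middle and 3756 CPM in Slpi-low cells (9.22 to 18723 CPM), with a ratio of 0.69. Irf1, an interferon-response transcription factor, had a median of 595 CPM in Slpi-high and 37.2 CPM in Slpi-low cells, while its means of 778 and 587 CPM differed less, since 1 Slpi-low cell reached 4917 CPM. Of the 4 members past the fold, Tap1, the peptide transporter, had 70.2% of its Slpi-high level in cell 69, and Ifi35 was read in 11 Slpi-high and 5 Slpi-low cells. H2-D1, a class I heavy chain, had a higher median in Slpi-high cells (620 against 185 CPM) but a lower mean (670 against 979 CPM).

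Slpi belongs to a family of WAP-domain inhibitors, and its relatives were scarcely read. Of 13 family members listed, only Wfdc2 passed the filter, with reads in 7 Slpi-high and 8 Slpi-low cells and a ratio of 0.30. The other 12 could not be compared. Among 13 filtered members of other protease inhibitor families, 1 was higher and 3 lower, with a median ratio of -0.20. Timp2, a metalloproteinase inhibitor, was higher at 1.52. Cst3, the cathepsin inhibitor cystatin C, was lower at -1.82 with 40.5% of its Slpi-low level in cell 19, the cell with immune genes. Serpinf1 was lower at -2.96, and 81.7% of its Slpi-low level came from cell 97. Of 14 proteases inhibited by Slpi or related to them, 4 passed the filter, with 0 higher and 1 lower (Htra1, -1.38).

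Genes of mucosal defence were few past the filter, at 3 of 18. Lcn2, the siderophore-binding lipocalin, was read in nearly every cell. Its median was 1845 CPM in Slpi-high, 1343 CPM in Slpi-middle and 1325 CPM in Slpi-low cells, with a ratio of 0.26. Its mean log2 difference was larger, at 1.67, against a median of 0.11 over all genes. The sum of 8 luminal progenitor genes, Lcn2 among them, peaked at 30398 CPM in Slpi-low cell 19. In Slpi-high cells that sum peaked at 9855 CPM in cell 61. Chil1, a chitinase-like secreted protein, had a ratio of 1.38 with medians of 42.1 and 6.36 CPM and reads in 19 and 15 of 27 cells. Complement C3 had a ratio of -0.73.

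Among glucocorticoid and progesterone responsive genes, 2 of 10 filtered members were higher (Mt2 and Cebpd), 2 lower (Klf9 and Ddit4), and the median ratio was 0.38. Mt1 belongs to the same list and stood just under the fold. Sgk1, a kinase induced by glucocorticoids, had medians of 608 and 203 CPM and a ratio of 0.85. Klf9, a transcription factor induced by the same hormones, had a ratio of -1.30, the other direction.

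Genes that define basal cells were mostly within the fold. Over the 11 core basal genes the median ratio was 0.34, with 1 higher and 0 lower, and the median of the mean log2 differences was 0.82 against 0.11 over all genes. Acta2, smooth muscle actin, had medians of 11154 CPM in Slpi-high and 13813 CPM in Slpi-low cells and a ratio of 0.34. Krt17, a keratin of stressed and basal epithelia, had medians of 4639, 4039 and 2181 CPM in high, middle and low cells, a ratio of 0.88 and a correlation of 0.40. Cnn1, a contractile calponin, was the member past the fold, at 1.06, and it was at 0.75 without the late-numbered cells. With only cells that had at least 6 core basal genes, the list's median was 0.07, and without the late-numbered cells it was 0.10. Ltbp2, Fxyd3, Icam1 and Mt1 had ratios of 1.01, 1.21, 1.55 and 0.91 with only the cells that had at least 6 core basal genes.

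Contractile genes had a median ratio of 0.18 over 18 filtered members, with 2 higher (Actg2 and Cnn1) and 0 lower. Of 8 filtered epithelial keratins, 2 were higher (Krt8 and Krt18, keratins of luminal cells) and 1 was lower. The median ratio was 0.56, and the median on the mean log2 scale was 1.11, against 0.11 over all genes. The lower one was Krt16, at -3.03, with reads in 5 Slpi-high and 6 Slpi-low cells and 68.3% of its Slpi-low level in cell 41. Krt8 had a median of 91.2 CPM in Slpi-high and 15.8 CPM in Slpi-low cells, with a ratio of 2.03, and Krt18 was read in 19 and 13 of 27 cells, with a ratio of 2.02. The pan-luminal gene Epcam, an adhesion molecule of epithelia, had medians of 438 and 346 CPM and a ratio of 0.19. Of the 27 cells in each group, 7 Slpi-high, 8 Slpi-middle and 2 Slpi-low cells had at least 3 of 7 pan-luminal genes at 100 CPM or more.

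Wnt and Notch genes counted 5 of 10 filtered members higher and 0 lower, beside 18.7% higher and 17.7% lower over all genes. The median ratio was 0.75, but 1 cell carried much of several of them. Tcf7 had 89.6% of its Slpi-high level in cell 69, Wnt10a 79.3% in 1 cell, Dll1 67.5% in cell 33 and Wif1 52.5% in cell 33. The list's median was -0.04 without the highest cell of each gene. Dkk3, a secreted relative of Wnt antagonists, was spread more widely, with reads in 21 Slpi-high and 13 Slpi-low cells, medians of 78.2 and 0 CPM and a ratio of 1.26, which was 0.89 without the late-numbered cells.

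Matrix and adhesion genes went both ways. Of 19 filtered members, 2 were higher and 4 lower, with a median ratio of -0.04. Itga3 and Itgb4, integrin subunits that bind laminin, were higher at 2.27 and 2.25. Col4a1, a chain of basement membrane collagen, was lower, with medians of 182 CPM in Slpi-high, 350 CPM in Slpi-middle and 610 CPM in Slpi-low cells and a ratio of -1.17, or -1.25 without the late-numbered cells. Its partner Col4a2 had a ratio of 0.22. The laminin chains Lama1, Lama5 and Lamc1 were lower at -1.24, -1.85 and -1.10, with 47.5%, 60.0% and 65.4% of their Slpi-low levels in 1 cell each.

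Heat shock genes had 0 of 12 members past the fold in either direction and a median ratio of 0.10. Immediate early genes, which respond to cell dissociation, had 1 of 18 higher (Atf3, 1.04), 2 lower (Junb and Nr4a1) and a median of 0.33. Secretory pathway genes, which fold and export proteins such as Slpi, had 3 of 16 higher (Ssr4, Xbp1 and Manf), 1 lower and a median of -0.03, and 3 of 16 is near the 18.7% of all genes. Of these, Ssr4 had medians of 58.3 and 0 CPM and reads in 21 and 10 of 27 cells, Manf had reads in 17 and 12, and Xbp1 had 89.4% of its Slpi-high level in 1 cell. TGF-beta response genes had 2 of 12 higher (Ltbp2 and Id1) and 2 lower (Id3 among them). Their median was -0.47, and it was 0.26 without the late-numbered cells. On the mean log2 scale it was 0.10, against 0.11 over all genes. Basal transcription factors had 1 of 11 higher (Sox10), 2 lower (Mef2c and Irx4) and a median of 0.12. Sox10, which is also a Schwann cell gene, had a ratio of 1.61 with reads in 11 cells of each group and 72.0% of its Slpi-high level in cell 69. That cell also held most of the Tcf7, Tap1 and Ccl2 levels given here.

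A list of 9 genes that were lower in pregnancy beside Slpi was chosen on cells of this series, so its direction is not independent of them. Of the 9, 3 were higher in Slpi-high cells (Ltbp2, Dkk3 and Chil1) and 2 lower (Id3 and Crip1). The median ratio was 0.43, and the median on the mean log2 scale was 1.18, against 0.11 over all genes. Crip1 had 56.7% and Id3 44.4% of its Slpi-low level in 1 cell. Map1b, a microtubule-associated protein on the list, had medians of 589 and 262 CPM but a ratio of means of 0.10. Reln, the only filtered member of a list of 10 genes that were higher in pregnancy, had a ratio of -1.60 with reads in 7 Slpi-high and 13 Slpi-low cells.

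The unmarked adult cells were ranked in the same way, with 19 Slpi-high and 19 Slpi-low cells. Their Slpi levels were 4441 to 50899 CPM (median 12065 CPM) and 0 to 18.2 CPM (median 8.85 CPM), so the contrast in Slpi was wider than in the marked cells. In these cells Slpi moved with title number, with a Spearman correlation of 0.53, and the Slpi-low cells were numbered 122 to 169 while only 5 of the 19 Slpi-high cells were numbered up to 169. Number and Slpi therefore cannot be told apart there. Unmarked Slpi-low cells 157, 126, 169 and 154 had only 0, 1, 2 and 4 of the 11 core basal genes at 100 CPM or more. Every unmarked Slpi-high cell had at least 6. The unmarked ratios below include these cells, and their part in the ratios was not tested.

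Across the genes past the filter in both sets, the 2 contrasts had little in common. Over 3941 genes the Pearson correlation of the log2 ratios was 0.03, and that of the Spearman correlations with Slpi was 0.15, both across genes, which are not independent replicates. Of 697 genes higher in marked Slpi-high cells, 26.8% were past the fold in the same direction in unmarked cells and 31.9% in the other, beside 24.3% higher and 29.3% lower over all 3941 genes. Of 647 genes lower in marked Slpi-high cells, 34.5% were lower and 26.6% higher in unmarked cells.

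**Figure D5:**
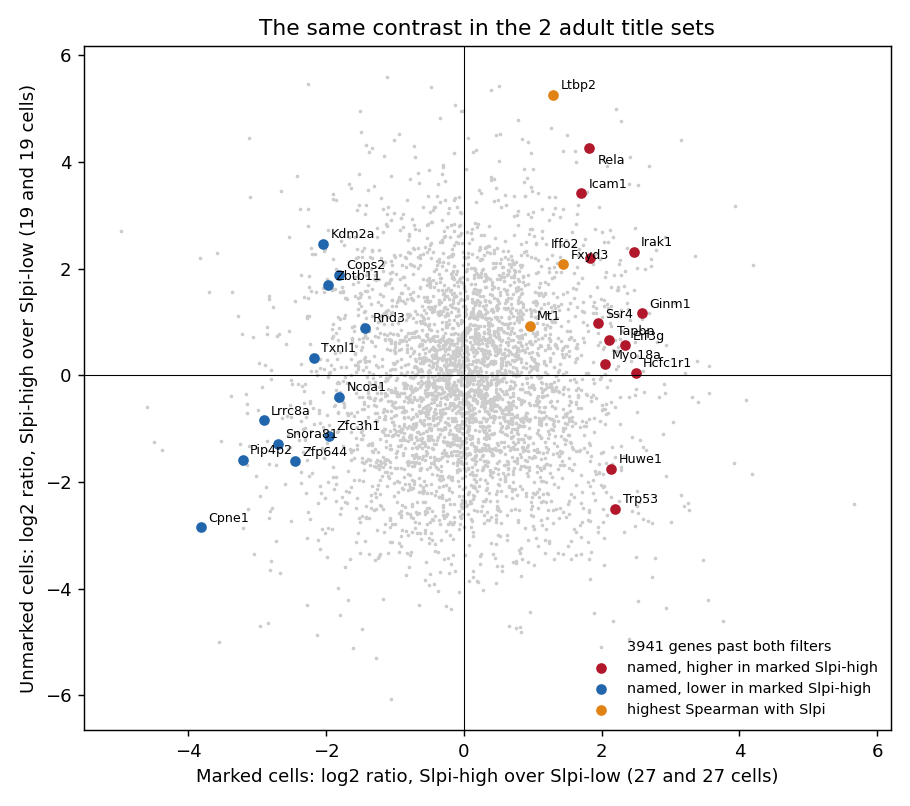
The log2 ratio of Slpi-high over Slpi-low cells in unmarked adult cells (vertical) against marked adult cells (horizontal) for 3941 genes, with named genes labelled. The cloud shows no slope, with a Pearson correlation of 0.03, while Ltbp2, Icam1, Rela, Irak1, Iffo2 and Fxyd3 lie high on both axes and Trp53 and Huwe1 lie low on the vertical axis.

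Of the 12 genes named as higher, 5 were past the fold in the same direction in unmarked cells (Ginm1, Irak1, Icam1, Iffo2 and Rela). In the other direction there were 2 (Huwe1, -1.75, and Trp53, -2.50). Over all 3941 genes 24.3% were higher and 29.3% lower in unmarked cells. Of the 12 named as lower, 5 were past it in the same direction and 3 in the other (Cops2, Kdm2a and Zbtb11). Icam1 had a ratio of 3.41 in unmarked cells, with means of 1637 and 145 CPM, and its correlation with Slpi over 58 cells was 0.52. Rela had a ratio of 4.27, with 60.5% of its unmarked Slpi-high level in cell 163. For Ginm1 60.3% of that level was in cell 131.

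The genes of highest correlation in the marked set were higher in unmarked Slpi-high cells as well. Ltbp2 had means of 448 and 1.94 CPM there, a ratio of 5.26 and a correlation of 0.62. Fxyd3 had a ratio of 2.08 and a correlation of 0.37, and Mt1 a ratio of 0.93 and a correlation of 0.35. With the unmarked Slpi-high group reduced to its 5 cells numbered up to 169, the ratio was 4.38 for Ltbp2, 4.14 for Icam1, 0.66 for Fxyd3 and 0.33 for Mt1. With the same 5 cells Irak1 changed sign, to -2.35, while Rela was at 5.56, Ginm1 at 2.51 and Iffo2 at 1.44.

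Single list members, chosen here after their values were seen, had the same direction in both sets. Krt17 had ratios of 0.88 and 2.31, Krt18 of 2.02 and 4.03, Dkk3 of 1.26 and 4.63, Bcl3 of 1.30 and 1.31, and Col4a1 of -1.17 and -1.06 in marked and unmarked cells. Other members differed between the sets, such as Nfkb1 at 1.53 and -2.35 and Nfkbia at -0.45 and 1.79. The core basal genes had a median ratio of 1.18 in unmarked cells. Of 18 immediate early genes 13 were higher and 1 lower there, with a median of 1.56, beside 24.3% higher and 29.3% lower over all genes. In those cells the number of core basal genes also moved with Slpi, with a correlation of 0.29, the same as the 0.29 in the marked cells.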

How the data were processed

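The authors deposited raw read counts per Entrez gene for each cell. Per the study's methods they aligned reads to mm10 with Subread (version 1.5.0 in the submitters' notes) and counted them per gene with featureCounts against RefSeq gene models. Counts carry no molecular identifiers, and whether strand was used is not given in the sources used here. Symbols were found in the RefSeq table of GRCm38.p6 for 25275 of 27179 gene IDs, the rest holding 1.09% of marked-cell reads. After 15 mitochondrial and 123 ribosomal protein genes were left out, 25137 genes remained. Retained marked cells had 78341 to 437532 reads in all. No doublet caller was run, since the study inspected capture sites by microscope, and no 2 marked cells had identical counts.

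CPM, ratios, rank correlations and thinning without replacement to 50000 reads were computed in Python 3.11.15 with numpy 2.4.6, pandas 2.3.3 and scipy 1.17.1. The ratio code was run on simulated counts with known changes, at a low and at a high spread between cells. A pass was required only at the low spread, so this checks the code and not its behaviour in noisy single-cell counts. Named genes were the 12 in each direction with the largest smaller-of-both differences (log2 ratio of means and mean log2 difference, same sign), the 3 of highest and of lowest Spearman correlation with Slpi, and members of 32 gene lists. The cells, lists and rules were chosen with earlier results of these data known. Groups were taken from the labels, and 21 alternatives were tried. Marked cells under the read or gene minimum were left out, 31 in number.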

Additional observations from a re-analysis of the deposited data

Results flagged for a closer look

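The 31 marked cells left out for low depth or few genes were outside the comparison and still held Slpi reads. They had 808 Slpi reads (exact Poisson 95% interval 753 to 866) among 452541 assigned reads, a share of 0.179% (exact Clopper-Pearson 95% interval 0.166 to 0.191%). Slpi was read in 24 of the 31 cells, and the median level was 708 CPM. The median mitochondrial share of these cells was 41.1%, against medians of 8.82 to 9.83% in the retained groups. The intervals cover counting error only.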

How the results depend on the processing

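No paired analysis was possible because the result comes from no test. The 30 named genes were chosen by their differences or correlations in the same cells that the alternatives reuse. Keeping direction was therefore partly set by that choice and is no independent check. Of the 30 named genes, 28 had the same direction under all 21 alternatives and 9 were past the fold under all of them. The exceptions were Pds5a, at 1.36 with only assigned reads at or above the median and 0.25 with only mitochondrial share above the median, and Zbtb11, at 0.87 with only mitochondrial share above the median. The count of genes was 150 higher and 189 lower with a pseudocount of 100 CPM, 292 and 77 with the difference of mean log2(CPM+10), and 1976 and 2175 with no filter on low values, where 25136 genes were counted. Without the highest cell of each gene it was 687 higher and 466 lower. Within the 6 strata of depth, mitochondrial share and title number it was 1068 to 1285 higher and 987 to 1205 lower, in smaller groups. The alternatives without cells numbered 95 or above (1039 higher and 800 lower), and with only unmarked cells numbered up to 169, were chosen after seeing the data. Counting depth limits sparse genes most, and no alternative replaces the missing animal labels.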
